A study of Homo sapiens with 11 samples.

Results

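The proteasome genes described here were the protein-coding genes whose symbol starts with PSMA, PSMB, PSMC, PSMD, PSME, PSMF or PSMG followed by a digit. There were 50 of them among the 20033 protein-coding genes of the annotation. The symbol rule took in 48 genes for subunits, assembly factors, activators and an inhibitor of the proteasome, and 2 genes whose products are not subunits, PSMC3IP, a meiotic recombination cofactor, and PSME3IP1, which binds the activator PSME3. The rule used names alone and no measured value.

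Binding of Ikaros, the zinc finger protein made from IKZF1, had been mapped by chromatin immunoprecipitation sequencing (ChIP-seq) in 4 established human lines of B-cell precursor acute lymphoblastic leukemia. The series held 11 libraries, 6 of Ikaros and 5 of input chromatin, and 1 peak list per condition was analysed here. JM1 cells were untreated or had received 20 µM CX-4945, an inhibitor of the kinase CK2, for 1 day, both with a Bethyl antibody (A303-516A). REH cells were untreated and used the same antibody, whereas untreated 697 cells and Nalm6 cells given the same CX-4945 dose for 1 day used an antibody described as affinity-purified. The Nalm6 condition had 2 Ikaros libraries and 1 list. The JM1 lists differ by treatment and share line and antibody, and untreated JM1 and REH share the antibody. In every other pair of lists at least 2 of line, antibody and treatment cannot be told apart. Each condition had 1 list, so no difference below has a replicate check or a test, and cell-type markers could not be checked because peak lists hold no expression.

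The proteasome degrades proteins tagged with ubiquitin. Its core particle is a barrel of alpha and beta rings whose catalytic beta subunits cut the substrate, and its regulatory particle, made of an ATPase ring and non-ATPase subunits, recognises, unfolds and feeds in the substrate. In lymphoid cells interferon-induced beta subunits can replace the standard catalytic ones and form the immunoproteasome, which makes many of the peptides shown on MHC class I. Transcription of the genes is known to be raised together by the factor NFE2L1 when proteasome activity falls.

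A promoter peak was a peak with any part within 1000 bp of any annotated transcription start site (TSS) of the gene. Its score is the authors' own, with a lowest value of 10 in each list and its definition was not found in the labels or headers. Scores are therefore ranked within a list and never compared between lists. The percentile is the rank of a peak's score, counted from the lowest, in percent of the list's peaks. Tied scores are given their average rank. A score of 20 stood at the 79.9 percentile in untreated JM1 and the 60.6 percentile in JM1 with CX-4945. It stood at the 48.1 percentile in Nalm6 and the 44.2 percentile in REH, so a cut at 20 is not a like threshold. Where a gene had several promoter peaks, the highest score is given.

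The promoters of 3 genes with a peak at the start site in all 5 lists (PSMD2, PSME1 and PSME4) and of 3 with a peak in 1 or 2 lists (PSMB2, PSMA3 and PSMA6) show the range of sequences behind the lists. Each run holds the 250 bases before the RefSeq start, 5′ to 3′ on the gene's strand, from the RefSeq promoter table on GRCh38.p14. Capitals mark 3 short words on either strand, namely the core of the Ikaros motif (GGGAA or TTCCC), the GC box of SP factors (GGGCGG or CCGCCC) and the CCAAT box of NF-Y (CCAAT or ATTGG). The first gene is on the plus strand of chr3:184298991-184299240, the second on the plus strand of chr14:24135944-24136193 and the third on the minus strand of chr2:53970994-53971243. PSMB2 lies on the minus strand at chr1:35641527-35641776, PSMA3 on the plus strand at chr14:58244593-58244842 and PSMA6 on the plus strand at chr14:35292132-35292381.
PSMD2: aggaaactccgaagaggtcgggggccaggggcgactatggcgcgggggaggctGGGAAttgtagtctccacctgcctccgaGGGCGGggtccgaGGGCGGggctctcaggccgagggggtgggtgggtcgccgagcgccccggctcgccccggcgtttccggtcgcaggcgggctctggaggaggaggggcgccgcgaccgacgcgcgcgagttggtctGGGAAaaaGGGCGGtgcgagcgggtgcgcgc
PSME1: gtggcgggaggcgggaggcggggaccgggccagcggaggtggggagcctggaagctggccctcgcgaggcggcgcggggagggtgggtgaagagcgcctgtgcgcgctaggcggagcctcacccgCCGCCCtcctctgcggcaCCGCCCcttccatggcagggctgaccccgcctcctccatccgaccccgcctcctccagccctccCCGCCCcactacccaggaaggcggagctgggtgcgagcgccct
PSME4: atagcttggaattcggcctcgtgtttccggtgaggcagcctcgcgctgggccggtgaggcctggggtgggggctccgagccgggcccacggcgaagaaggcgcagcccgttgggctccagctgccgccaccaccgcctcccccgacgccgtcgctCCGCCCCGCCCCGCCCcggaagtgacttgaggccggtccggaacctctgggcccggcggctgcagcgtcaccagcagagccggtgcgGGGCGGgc
PSMB2: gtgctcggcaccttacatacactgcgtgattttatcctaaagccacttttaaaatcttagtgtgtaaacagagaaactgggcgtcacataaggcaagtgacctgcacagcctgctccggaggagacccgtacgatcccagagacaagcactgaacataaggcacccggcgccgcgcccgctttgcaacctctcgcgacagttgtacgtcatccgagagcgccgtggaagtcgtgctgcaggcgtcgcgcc
PSMA3: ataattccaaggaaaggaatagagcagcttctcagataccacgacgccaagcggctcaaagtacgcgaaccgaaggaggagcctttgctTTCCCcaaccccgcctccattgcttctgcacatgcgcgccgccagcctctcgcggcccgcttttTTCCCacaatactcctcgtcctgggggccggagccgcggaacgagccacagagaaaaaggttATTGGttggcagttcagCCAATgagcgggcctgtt
PSMA6: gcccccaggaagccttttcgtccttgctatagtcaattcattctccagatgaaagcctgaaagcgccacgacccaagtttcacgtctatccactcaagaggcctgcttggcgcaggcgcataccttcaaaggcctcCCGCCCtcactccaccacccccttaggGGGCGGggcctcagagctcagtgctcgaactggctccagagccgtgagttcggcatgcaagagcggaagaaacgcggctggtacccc
The PSMD2 run held 2 Ikaros cores, 3 GC boxes and 0 CCAAT boxes, and its G+C content was 74.4%. The PSME1 and PSME4 runs held 3 and 4 GC boxes and 0 Ikaros cores, with 76.8% and 75.2% G+C. PSMA3 had 2 Ikaros cores, 2 CCAAT boxes and 0 GC boxes, PSMA6 had 2 GC boxes, and PSMB2 held none of the 3 words. These 3 runs had 57.6%, 59.6% and 56.0% G+C. A run with no Ikaros core could thus lie, at least in part, under peaks in all 5 lists, and one with 2 cores under peaks in 2 lists. The peaks reach beyond the runs, so a run without a core does not mean a peak without one. For PSME1, the 300 bases that include 50 after the start hold 1 core. Peaks covered all 250 bases of the PSMD2 run in both JM1 lists and REH, 242 bases in 697 and 121 in Nalm6. For PSMB2 a REH peak covered 187 bases and the other 4 lists had no peak there.

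In the untreated JM1 list 29 of the 50 genes had a promoter peak, 58.0% against 58.8% of all protein-coding genes. After CX-4945 the JM1 list had a promoter peak at 48 (96.0%, all genes 81.2%), with PSMB2 and PSMB7, both standard beta ring genes, left without one. All 50 had a promoter peak in REH, where 81.8% of all genes did. The 697 list held 15 (30.0%), below the 49.5% of all genes, and the Nalm6 list 39 (78.0%), near the 74.3% of all genes. The lists differed in length, from 19652 peaks in 697 to 37448 in untreated JM1, 70894 in Nalm6, 83563 in REH and 88692 in JM1 with CX-4945. When the 19652 highest-scored peaks of each list were used, 24 of the genes had a promoter peak in untreated JM1 (48.0%, all genes 45.6%), 34 in JM1 with CX-4945 (68.0%, all genes 60.5%), 39 in REH (78.0%, all genes 62.2%) and 28 in Nalm6 (56.0%, all genes 54.4%). The 697 list set this length, so its 15 (30.0% against 49.5%) could not change. Ties at the cut were broken by larger width, then by position. Peaks of the proteasome genes had lower median widths than those of all genes in every list. The effect of the tie rule on the counts was not tested. The share of the proteasome genes was therefore above that of all genes in REH and JM1 with CX-4945 at either list length. In 697 it was below that of all genes, with the full list as the only setting of length. The genes had a median of 8 annotated start sites against 5 over all protein-coding genes, and a rule of this kind counts genes with more starts more readily. With the canonical start alone, 28, 46, 49, 13 and 37 of the genes had a peak in untreated JM1, JM1 with CX-4945, REH, 697 and Nalm6, against 53.2%, 78.0%, 78.8%, 45.1% and 70.0% of all genes.

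**Figure D1:**
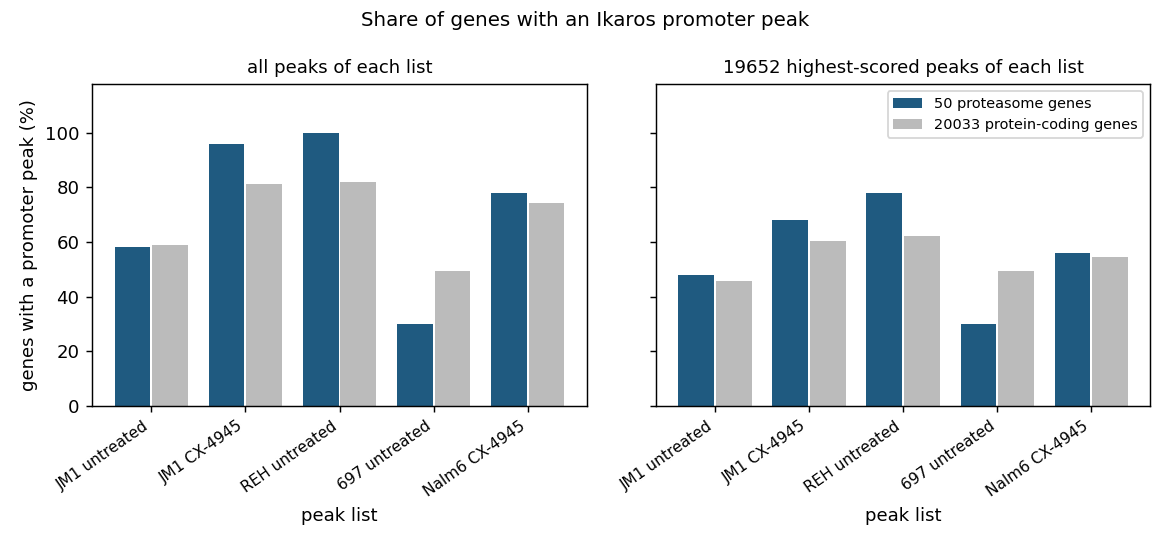
Percentage of genes with an Ikaros promoter peak in each of the 5 lists, for the 50 proteasome genes (blue) and all 20033 protein-coding genes (grey), with all peaks (left) and with the 19652 highest-scored peaks of each list (right). The blue bar is the taller in JM1 with CX-4945, REH and, by less, Nalm6 in both panels. It is the shorter in 697, whose bars are the same in both panels because that list has 19652 peaks.

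No proteasome gene was without a promoter peak in every list, whereas 14.7% of all genes were in 0 lists. A peak in all 5 lists was found for 14 of the 50 (28.0%, all genes 41.8%). Another 13 (26.0%, all genes 20.7%) had one in 4 lists, 14 in 3 lists (28.0%, all genes 12.4%), 8 in 2 lists (16.0%, all genes 6.31%) and 1, PSMB2, in 1 list. The genes in all 5 lists were PSMA1, PSMA7, PSMB9, PSMC5, PSMD2, PSMD11, PSMD12, PSMD13, PSME1, PSME2, PSME4, PSMG2, PSMG3 and PSMG4. Without the 697 list, the shortest, 26 genes (52.0%, all genes 55.4%) had a promoter peak in all of the other 4. With the canonical start alone, 12 (24.0%, all genes 36.1%) had a peak in all 5 lists, since PSMA1 had none there in 697 and Nalm6 and PSMG4 had none there in 697.

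**Figure D2:**
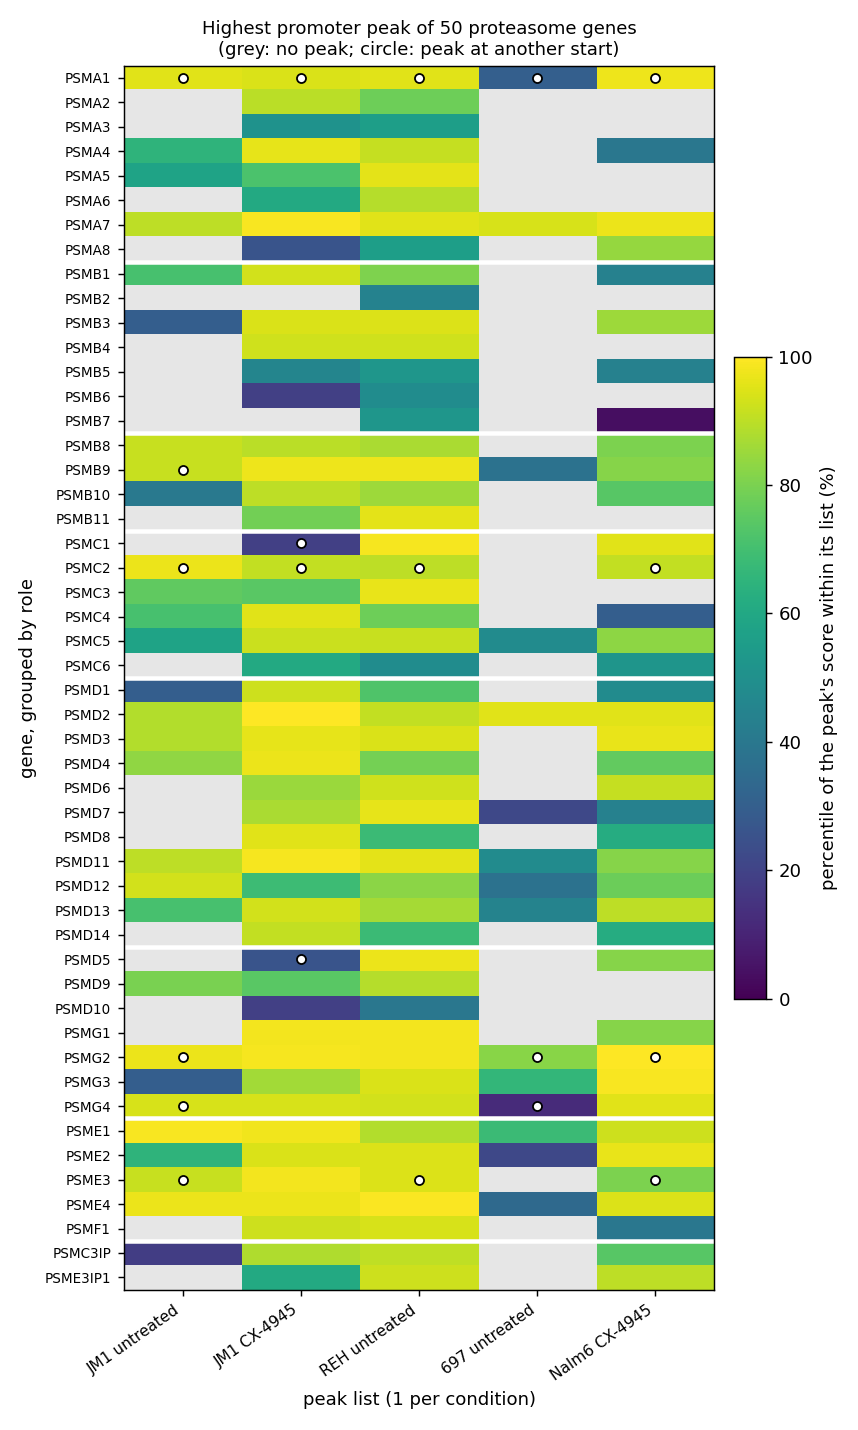
Percentile of the highest promoter peak within its list (colour, %) for the 50 genes (rows, grouped by role between white lines) in the 5 lists (columns). Grey cells are genes without a promoter peak, and a circle marks a peak that lies more than 1000 bp from the canonical start, as for PSMA1 and PSMC2 in every list where they have a peak. The 697 column is grey for 35 genes and the REH column for 0.

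The alpha ring forms the gated entrance of the core particle, and its 8 genes had promoter peaks at 4 in untreated JM1, 8 in JM1 with CX-4945, 8 in REH, 2 in 697 and 4 in Nalm6. PSMA7 had one peak over its start in each list, with scores of 24 in untreated JM1, 98 in JM1 with CX-4945, 70 in REH, 55 in 697 and 60 in Nalm6. These stood at the 90.2, 99.1, 95.7, 94.1 and 97.1 percentiles of their lists, so the PSMA7 peak was at or above the 90.2 percentile in all 5. The stretch common to the 5 lists was 1531 bp long (chr20:62142669-62144199), held the canonical start and lay at a shared promoter with SS18L1, whose start is within 1000 bp on the opposite strand. For PSMA1 the highest peaks scored 29 in untreated JM1, 46 in JM1 with CX-4945, 69 in REH, 17 in 697 and 61 in Nalm6. They all lay about 124 kb upstream of the canonical start, at the start of a long alternative transcript that faces PDE3B (chr11:14643621-14644823 in 697, centre 123836 bp upstream). At the canonical PSMA1 start itself the scores were 21 in untreated JM1, 16 in JM1 with CX-4945 and 56 in REH, with no peak in 697 or Nalm6.

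The other alpha genes had fewer lists. PSMA4 scored 17 in untreated JM1, 57 in JM1 with CX-4945, 51 in REH and 18 in Nalm6, and PSMA5 scored 16, 23 and 71 in the first 3 of these lists. PSMA2 scored 35 in JM1 with CX-4945 and 32 in REH, PSMA3 scored 18 and 23 there, and PSMA6 scored 20 and 45. PSMA8, whose product replaces PSMA7 in male germ cells, scored 14 in JM1 with CX-4945, 23 in REH and 36 in Nalm6. None of these 6 genes had a promoter peak in 697, and PSMA2, PSMA3 and PSMA6 had none in untreated JM1, 697 or Nalm6.

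The 7 standard beta ring genes, PSMB1 to PSMB7, had promoter peaks at 2 in untreated JM1, 5 in JM1 with CX-4945, 7 in REH, 0 in 697 and 4 in Nalm6. None was in all 5 lists, and 4 (PSMB2, PSMB4, PSMB6 and PSMB7) were in 2 or fewer. PSMB5, PSMB6 and PSMB7 encode the 3 catalytic subunits that the immunoproteasome exchanges. PSMB5 scored 17 in JM1 with CX-4945, 22 in REH and 19 in Nalm6, and PSMB6 scored 13 in JM1 with CX-4945 and 21 in REH. PSMB7 scored 22 in REH and 11 in Nalm6, the latter at the 3.56 percentile of its list. None of the 3 had a promoter peak in untreated JM1 or 697, and their highest percentile was 52.4, for PSMB5 and PSMB7 in REH. Among the non-catalytic genes, PSMB1 scored 18 in untreated JM1, 43 in JM1 with CX-4945, 34 in REH and 19 in Nalm6. PSMB3 scored 13, 46, 65 and 37 in the same lists, and PSMB4 scored 41 in JM1 with CX-4945 and 56 in REH. PSMB2 had a single promoter peak, 316 bp wide with a score of 20, in REH. PSMB1 faces TBP, the gene of the TATA-binding protein, within 1000 bp.

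Of the interferon-induced beta genes, PSMB8 had promoter peaks of 25 in untreated JM1, 35 in JM1 with CX-4945, 42 in REH and 33 in Nalm6, and none in 697. PSMB9 scored 64 in JM1 with CX-4945, 85 in REH, 19 in 697 and 34 in Nalm6, over the promoter it shares head to head with the peptide transporter gene TAP1. In untreated JM1 the highest peak counted for PSMB9 was the PSMB8 peak (score 25, chr6:32842690-32845652), reached through an alternative PSMB9 start, and the peak at the shared promoter with TAP1 scored 19. PSMB10 scored 14 in untreated JM1, 36 in JM1 with CX-4945, 39 in REH and 29 in Nalm6. Its REH peak was 21453 bp wide. All 3 immunoproteasome genes were thus in both JM1 lists (all genes 58.2%). The 3 catalytic genes they replace were absent from the untreated list, which held 58.8% of all genes. The untreated PSMB10 peak stood at the 40.3 percentile and did not hold the canonical start. In 697, PSMB8 and PSMB10 had no promoter peak, like the 3 catalytic genes. The groups are small and the contrast was not tested. PSMB11, the thymus-restricted beta gene, scored 26 in JM1 with CX-4945 and 71 in REH, in peaks 7655 and 17294 bp wide, and had no promoter peak in the other 3 lists.

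The 6 ATPase genes, PSMC1 to PSMC6, encode the ring that unfolds substrates and opens the core. Promoter peaks were listed at 4 in untreated JM1, 6 in JM1 with CX-4945, 6 in REH, 1 in 697 and 5 in Nalm6. PSMC5 was the one in all 5 lists, with scores of 16 in untreated JM1, 39 in JM1 with CX-4945, 52 in REH, 22 in 697 and 35 in Nalm6, and it faces FTSJ3. PSMC1 scored 104 in REH, at the 98.8 percentile, and 55 in Nalm6, both at its canonical start. In JM1 with CX-4945 its one peak scored 13 and lay 9573 bp inside the gene, at an internal start. PSMC2 scored 31 in untreated JM1, 37 in JM1 with CX-4945, 48 in REH and 44 in Nalm6, but in peaks centred 2517 to 3097 bp upstream at an alternative start. The authors named these peaks for DNAJC2 in both JM1 lists and Nalm6, and for PSMC2 in REH. With the canonical start alone PSMC2 had a peak in 0 lists, which held for no other gene of the 50. PSMC3 scored 19, 24 and 76 in untreated JM1, JM1 with CX-4945 and REH, and PSMC4 scored 18, 52, 32 and 16 in untreated JM1, JM1 with CX-4945, REH and Nalm6. PSMC6 scored 20 in JM1 with CX-4945, 21 in REH and 21 in Nalm6.

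The 11 non-ATPase genes of the regulatory particle had promoter peaks at 7 in untreated JM1, 11 in JM1 with CX-4945, 11 in REH, 5 in 697 and 11 in Nalm6, and 4 of them were in all 5 lists. PSMD2, a scaffold subunit that binds shuttle factors, scored 23 in untreated JM1, 150 in JM1 with CX-4945, 50 in REH, 59 in 697 and 55 in Nalm6. The treated JM1 peak had the highest score of any proteasome gene in that list (99.7 percentile), and the 697 peak the highest in 697 (95.5 percentile). Its common stretch of 141 bp (chr3:184299120-184299260) held the canonical start and the end of the run printed above. PSMD11, a lid scaffold subunit, scored 24 in untreated JM1, 85 in JM1 with CX-4945, 71 in REH, 22 in 697 and 34 in Nalm6. The lid subunit PSMD12 scored 26, 22, 36, 19 and 31 in the same order of lists, and another lid subunit, PSMD13, which faces SIRT3, scored 18, 42, 41, 21 and 43. Of these 4 genes PSMD12 had the highest score in untreated JM1 and the lowest in each of the other 4 lists.

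Among the remaining non-ATPase genes, the ubiquitin receptor PSMD4 scored 21 in untreated JM1, 61 in JM1 with CX-4945, 33 in REH and 30 in Nalm6. PSMD1, the second large scaffold subunit, scored 13, 40, 29 and 20 in those lists, and PSMD3 scored 23, 56, 63 and 58. The deubiquitinase of the lid, PSMD14, had no peak in untreated JM1 and scored 37 in JM1 with CX-4945, 27 in REH and 24 in Nalm6. Its partner PSMD7 scored 32 in JM1 with CX-4945, 73 in REH, 15 in 697 and 19 in Nalm6. PSMD6 scored 30, 56 and 45 and PSMD8 scored 52, 27 and 24 in JM1 with CX-4945, REH and Nalm6, with no promoter peak in the other lists. Both genes of the deubiquitinase pair were therefore in the treated JM1 list and not in the untreated one. The same held for 38.0% of the proteasome genes and 23.0% of all genes. Both genes also had a peak in REH, as did all 50 proteasome genes.

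The 7 assembly factor genes had promoter peaks at 4 in untreated JM1, 7 in JM1 with CX-4945, 7 in REH, 3 in 697 and 5 in Nalm6. PSMG1 to PSMG4 encode chaperones of the core particle. PSMG2 scored 31 in untreated JM1, 82 in JM1 with CX-4945, 95 in REH, 39 in 697 and 85 in Nalm6, the last being the highest of the proteasome genes in its list (99.7 percentile). It had peaks at starts about 45 kb apart, and the highest lay at the upstream start in untreated JM1, 697 and Nalm6. At its canonical start, which faces CEP76, it scored 18 in untreated JM1, 82 in JM1 with CX-4945, 95 in REH, 18 in 697 and 21 in Nalm6. PSMG3 scored 13 in untreated JM1, 31 in JM1 with CX-4945, 63 in REH, 29 in 697 and 73 in Nalm6. Peaks that the authors named for PSMG3 also lay 16124 to 20293 bp upstream in all 5 lists, with scores of 26, 24, 50, 24 and 37 in the same order, of which that in REH was 11324 bp wide. PSMG4 scored 27 in untreated JM1, 45 in JM1 with CX-4945, 58 in REH, 13 in 697 and 55 in Nalm6, and in untreated JM1 and 697 this was at a start 27 kb upstream. PSMG1 scored 79 in JM1 with CX-4945, 93 in REH and 34 in Nalm6, with no peak in untreated JM1 or 697.

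Of the 3 chaperones of the regulatory particle base, PSMD9 scored 20 in untreated JM1, 24 in JM1 with CX-4945 and 45 in REH. PSMD5 scored 14 in JM1 with CX-4945, 82 in REH and 34 in Nalm6. The treated JM1 peak of PSMD5 was centred 9806 bp inside the gene, and the peak at the canonical start there scored 11. PSMD10, also known as gankyrin, scored 13 in JM1 with CX-4945 and 19 in REH and faces ATG4A. All 7 assembly factor genes had a promoter peak in JM1 with CX-4945 and REH. These lists held 48 and 50 of the 50 proteasome genes, and 81.2% and 81.8% of all genes.

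The activators and the inhibitor cap the core particle in place of, or beside, the regulatory particle, and their 5 genes had promoter peaks at 4 in untreated JM1, 5 in JM1 with CX-4945, 5 in REH, 3 in 697 and 5 in Nalm6. PSME1, a subunit of the interferon-induced activator, scored 40 in untreated JM1, 72 in JM1 with CX-4945, 44 in REH, 30 in 697 and 47 in Nalm6. Its 40 was the highest score of the proteasome genes in untreated JM1, at the 99.0 percentile. PSME2, the partner subunit, which faces RNF31, scored 17, 46, 65, 15 and 58 in the same order of lists. PSME4, a nuclear activator that acts on acetylated histones, scored 31 in untreated JM1, 61 in JM1 with CX-4945, 128 in REH, 18 in 697 and 52 in Nalm6, and led the proteasome genes in REH (99.5 percentile). PSME1, PSME2 and PSME4 were each in all 5 lists. PSME3, the nuclear activator, scored 25 in untreated JM1, 74 in JM1 with CX-4945, 65 in REH and 33 in Nalm6, of which only the treated JM1 value lay at its canonical start, the others lying about 9 kb upstream beside BECN1. At that canonical start PSME3 scored 13 in untreated JM1, 43 in REH and 19 in Nalm6. The inhibitor gene PSMF1 scored 40 in JM1 with CX-4945, 60 in REH and 18 in Nalm6. The genes that are no subunits scored 12 in untreated JM1, 33 in JM1 with CX-4945, 49 in REH and 29 in Nalm6 for PSMC3IP, and 20 in JM1 with CX-4945, 55 in REH and 43 in Nalm6 for PSME3IP1.

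The JM1 lists compare the same line and antibody without and with CK2 inhibition. A promoter peak was in both lists for 29 genes (58.0%, all genes 58.2%), in the treated list alone for 19 (38.0%, all genes 23.0%), in the untreated list alone for 0 (all genes 0.564%) and in neither for 2 (4.0%, all genes 18.2%). The treated list also held 88692 peaks against 37448. With the 19652 highest-scored peaks of each, 14 of the genes were in the treated list alone (28.0%, all genes 20.7%) and 4 in the untreated list alone (8.0%, all genes 5.83%). With peaks of score 20 or more in both, 25 of the 50 were in the treated list alone (all genes 45.7%). The distance to all genes was thus smaller at both settings than with all peaks. A score of 20 is a higher percentile in the untreated list, so this cut removes a larger share of that list. The 19 were PSMA2, PSMA3, PSMA6, PSMA8, PSMB4, PSMB5, PSMB6, PSMB11, PSMC1, PSMC6, PSMD5, PSMD6, PSMD7, PSMD8, PSMD10, PSMD14, PSME3IP1, PSMF1 and PSMG1. Their treated peaks had a median score of 20 (range 13 to 79) against 46 (range 22 to 150) for the 29 in both lists. Over all genes these medians were 26 for genes in the treated list alone and 39 for genes in both. PSMG1 had the highest treated score of the 19, 79 (98.4 percentile), followed by PSMD8 with 52. REH held all 50 proteasome genes, so the 19 had to be among them (all genes of this class 89.7%). Of the 19, 12 had a promoter peak in Nalm6 (63.2%, all genes 72.6%) and 1, PSMD7, in 697 (5.26%, all genes 28.7%). The 29 genes in both JM1 lists were for the same reason all in REH (all genes 99.5%). Of these 29, 26 were in Nalm6 (89.7%, all genes 95.6%) and 14 in 697 (48.3%, all genes 73.1%).

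There were 35 separate promoter peaks of the proteasome genes in untreated JM1, and all 35 shared 1 bp or more with a treated peak, as did 96.2% of the promoter peaks of all protein-coding genes. With a reciprocal overlap of 50% the count was 18 (51.4%, all promoter peaks 36.1%). Of the 63 treated peaks 36 overlapped an untreated one (57.1%, all promoter peaks 59.0%). At the canonical start, 28 genes had a peak in both lists and 25 of them (89.3%) were wider in the treated one, as for 89.7% of all genes. The median width went from 718.5 bp to 1317.5 bp in the proteasome genes and from 1063 bp to 2077 bp over all genes. PSMD11 was an example, with a peak 442 bp wide that began downstream of its start in the untreated list and one 1283 bp wide across the start in the treated list.

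**Figure D3:**
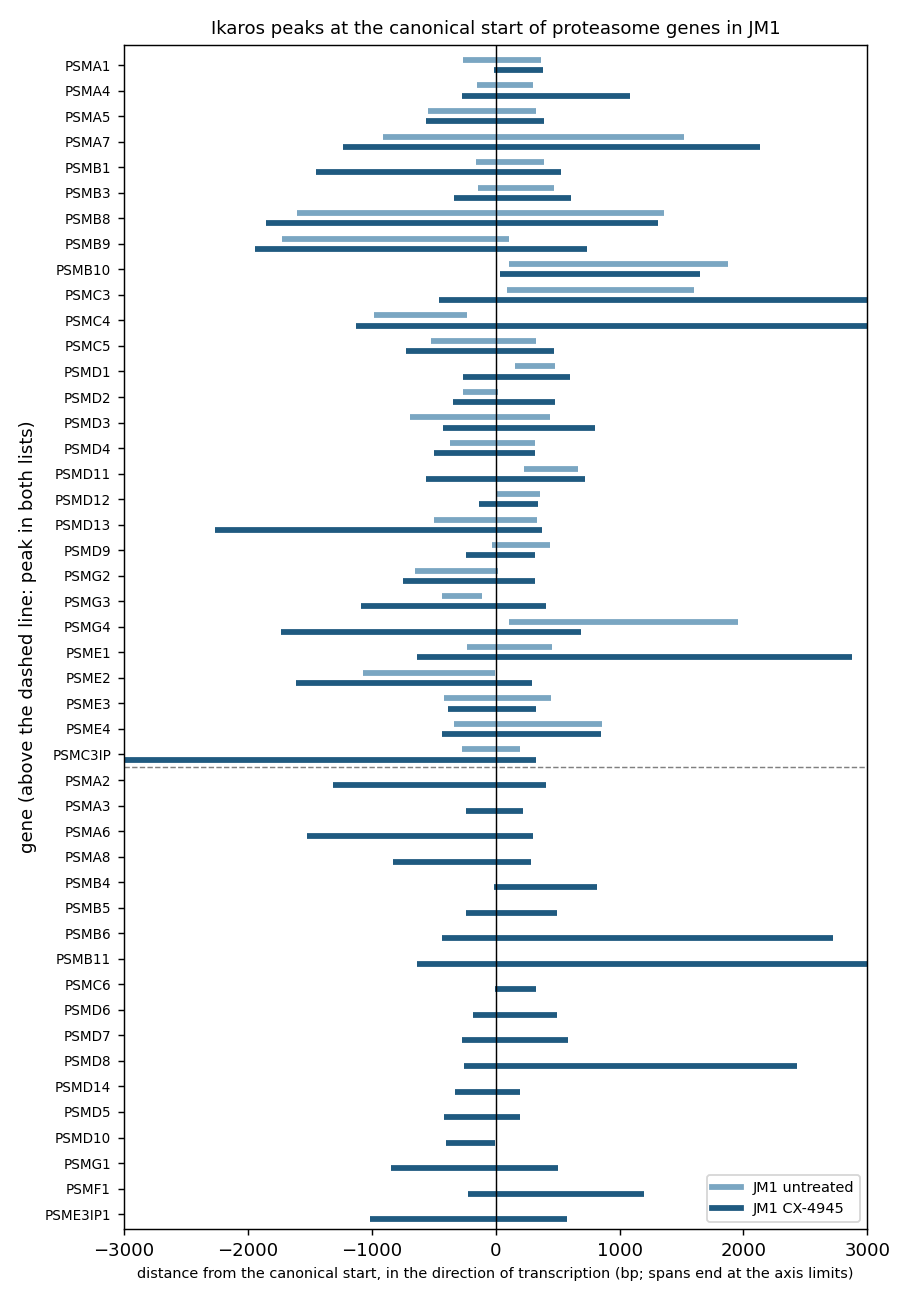
Extent of the highest Ikaros peak within 1000 bp of the canonical start (0 on the horizontal axis, bp in the direction of transcription) in untreated (light) and CX-4945-treated (dark) JM1 cells. The 28 genes above the dashed line have a peak in both lists, 25 of them with the wider span in the treated list, and those below have one in the treated list alone.

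Within their lists the highest promoter peaks of the proteasome genes had median percentiles of 83.3 in untreated JM1 (all genes with a promoter peak 75.7), 91.3 in JM1 with CX-4945 (90.2), 91.1 in REH (89.4), 44.9 in 697 (68.2) and 81.8 in Nalm6 (86.2). The 697 list was thus the one in which both the share of the genes with a peak and the rank of those peaks lay below those of all genes. The peaks were narrower than those of all genes in all 5 lists, with median widths from 561 bp in 697 (763 over all genes) and 686 bp in untreated JM1 (1041) to 835 bp in Nalm6 (1271), 1322.5 bp in REH (1802) and 1350.5 bp in JM1 with CX-4945 (1710). Their centres lay closer to the canonical start, at a median of 258, 305.5, 195, 130 and 210 bp against 394, 419, 409, 273 and 356 bp over all genes. The canonical start itself lay inside the highest peak for 16 of 29 genes in untreated JM1 (55.2%, all genes 60.5%) and for 42 of 48 in JM1 with CX-4945 (87.5%, all genes 81.6%). The shares were 86.0% in REH (all genes 83.0%), 60.0% in 697 (65.0%) and 66.7% in Nalm6 (71.1%). With any peak counted, 20 of the 50 genes had one over the canonical start in untreated JM1 (40.0%, all genes 39.8%). In JM1 with CX-4945 there were 44 (88.0%, all genes 72.9%).

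The 16 promoter peaks of the proteasome genes in 697 all overlapped a peak of JM1 with CX-4945, REH and Nalm6, and 15 overlapped one of untreated JM1 (93.8%). Over all promoter peaks in 697 these shares were 98.3%, 98.9%, 96.4% and 79.4%. Of the 35 in untreated JM1, 34 overlapped a REH peak (97.1%, all promoter peaks 96.7%), 29 a Nalm6 peak (82.9%, all 89.8%) and 15 a 697 peak (42.9%, all 59.2%). The 12 genes with a peak at the canonical start in all 5 lists each had a stretch common to all 5, from 66 bp for PSMG3 to 1531 bp for PSMA7, with a median of 353 bp. That stretch held the canonical start in 7 of them, PSMA7, PSMB9, PSMD2, PSMD12, PSME1, PSME4 and PSMG2.

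Of the 50 genes 13 shared a promoter with a neighbour, in that a protein-coding start lay on the opposite strand within 1000 bp of the canonical start. Of these 13, 7 were in all 5 lists (PSMA7, PSMB9, PSMC5, PSMD13, PSME2, PSME4 and PSMG2), and a peak at such a place cannot be assigned to either gene. The others were PSMA2 with MRPL32, PSMB1 with TBP, PSMB8 with PSMB9, PSMD10 with ATG4A, PSME3 with BECN1 and PSME3IP1 with RSPRY1. The authors had given another gene's name to 9 of the 35 promoter peaks in untreated JM1, 16 of 63 in JM1 with CX-4945, 19 of 61 in REH, 5 of 16 in 697 and 11 of 45 in Nalm6.

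Peaks that the authors named for a proteasome gene but that lay outside all its promoter windows numbered 8 in untreated JM1, 40 in JM1 with CX-4945, 48 in REH, 3 in 697 and 30 in Nalm6. PSMB7, with no promoter peak in either JM1 list, had 3 such peaks in untreated JM1 and 6 in JM1 with CX-4945. The untreated ones scored 18, 18 and 20, and the one with 20 lay in an intron 50117 bp downstream of the start (chr9:124365167-124365483). PSMB2 had 1 in JM1 with CX-4945, of score 13, centred 35846 bp upstream. In JM1 with CX-4945 the highest score among these peaks was 40, for a narrow peak 7393 bp upstream of PSMD6 (92.2 percentile). In REH it was 50, for the PSMG3 peak described above, and the PSMD6 peak scored 41.

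The RefSeq table held a promoter of 300 bases, 250 before and 50 after the start, for 44 of the 50 genes. PSMA7, PSMB1, PSMB6, PSMB7, PSMD4 and PSMG3 had no entry. The median G+C content was 62.0% (range 44.7 to 75.3%) against 63.7% over 15308 protein-coding promoters. It was 70.3% in the 10 promoters with a peak at the canonical start in all 5 lists and 56.7% in the 9 with a peak there in 2 lists or fewer. The order of the medians followed the number of lists, from 57.7% for 2 lists through 61.8% for 3 and 63.3% for 4 to 70.3% for 5. Over all genes the share with a promoter peak also moved with G+C. When promoters were cut by G+C into 4 bins of like size, it was 15.2% in the lowest bin in 697, 34.3% in the second, 62.0% in the third and 90.5% in the highest. Of the proteasome genes 1 of 7, 2 of 21, 5 of 10 and 5 of 6 had a 697 peak in these bins. In the second bin (55.7 to 63.7% G+C), with 21 of the 44 genes, the count was 10 in untreated JM1 (all genes 54.3%), 20 in JM1 with CX-4945 (88.2%), 21 in REH (89.7%) and 14 in Nalm6 (75.9%). The part of base composition in the lists was not tested.

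**Figure D4:**
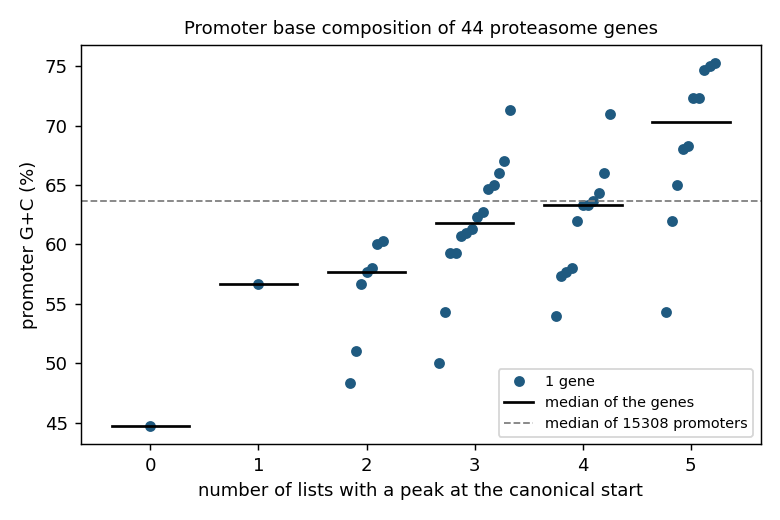
G+C content of the 300-base RefSeq promoter (vertical axis, %) of 44 proteasome genes by the number of lists with a peak within 1000 bp of the canonical start (horizontal axis). Points are genes, bars their medians and the dashed line the median of 15308 promoters, 63.7%, and the medians go from 57.7% at 2 lists to 70.3% at 5.

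Short words were counted on both strands in the same 300 bases, where a match is a description of letters and not a binding site. The Ikaros core GGGAA was in 32 of the 44 promoters (72.7%, all promoters 66.2%), and the longer form TGGGAA, which contains it, in 11 (25.0%, all 22.0%). The core was in 8 of the 10 promoters with peaks in all 5 lists and in 4 of the 9 with peaks in 2 or fewer. The ETS word CCGGAAG was in 17 (38.6%, all 14.8%) and the YY1 word AAGATGG in 7 (15.9%, all 6.57%). TGACNNNGC, the core of the antioxidant response element bound by NFE2L1 and its relatives, was in 12 (27.3%, all 14.3%), of which 5 were among the 10 and 0 among the 9. The GC box GGGCGG was in 31 (70.5%, all 61.8%), including 10 of the 10 and 3 of the 9. CCAAT was in 20 (45.5%, all 36.6%), including 2 of the 10 and 6 of the 9. The E-box CACGTG was in 4 (9.09%, all 8.87%) and GCGCATGCG, the NRF1 word, in 1 (2.27%, all 2.8%).

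A list of 41 further genes of the ubiquitin-proteasome system and antigen processing was read in the same way. Of these, 31 had a promoter peak in untreated JM1 (75.6%, all genes 58.8%), 41 in JM1 with CX-4945 (81.2% of all genes), 41 in REH (81.8% of all genes), 26 in 697 (63.4%, all genes 49.5%) and 36 in Nalm6 (87.8%, all genes 74.3%). In all 5 lists there were 21 of the 41 (all genes 41.8%). Among the 7 genes tied to the transcription of proteasome genes, NFE2L1 scored 18 in untreated JM1, 31 in JM1 with CX-4945, 38 in REH, 16 in 697 and 66 in Nalm6. All 7 were listed in 697, where 49.5% of all genes were. The 2 highest scores of the 41 in untreated JM1 were 36 for POMP, the core particle maturation chaperone, and 35 for MAFK, a small partner of NFE2L1. In JM1 with CX-4945, RAD23B, a shuttle factor that brings ubiquitinated proteins to the proteasome, scored 145. Of the 6 genes for ubiquitin and its activating enzymes 2 were in untreated JM1, 6 in JM1 with CX-4945 and 1 in 697. In the same 3 lists the bound and assembly proteins counted 10, 12 and 8 of 12, the shuttle factors 8, 9 and 5 of 9, and the antigen processing genes 5, 7 and 5 of 7. Those 3 lists held 58.8%, 81.2% and 49.5% of all genes. TAP1 had the scores of the promoter it shares with PSMB9, counted in both lists of genes.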

How the data were processed

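Peak lists from Ikaros ChIP-seq of 4 human leukemia lines were analysed. Per the submitters' processing notes, the tools were HOMER 4.10, MACS2 2.1.1 and Bowtie2 2.3.4.3 and the build was GRCh38. No source used here gives the call settings, the control of each call or whether the Nalm6 list pooled its 2 libraries. Each deposited peak carries a position, a gene name and a whole-number score, all made by the authors, per the file headers. Read depth was not analysed here, and inputs have no list analysed here.

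Coordinates were used as deposited and set against GENCODE release 44 on GRCh38. Python 3.11.15, pandas 2.3.3 and numpy 2.4.6 were used, and the overlap code was tested on simulated data. Every gene of the symbol rule is accounted for by role, and values are given in each list where the gene has a peak. The rule for named genes took the 3 highest in each list, the immunoproteasome and PSME genes, those in 1 JM1 list alone and those in 2 lists or fewer, and for the further 41 genes the 2 highest in each JM1 list and any in no list, of which there were 0. The other genes named were added after their values were seen. A result that this rule takes in is not reported here. The members and lists were chosen with earlier results of these data known. Percentages over all genes stand beside the counts as a background, and no test or p-value is given, since each condition had 1 list. Alternatives were the window, the peak centre, the canonical start, a minimum score of 20, equal list length, the authors' gene names and the overlap.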

Additional observations from a re-analysis of the deposited data

How the results depend on the processing

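Over 15 results and 76 alternatives, 66 values were within 1.5 times that reported and 10 were not. Equal list length could not change the 697 count, because that list set the length. With peaks that score at least 20, the genes with a promoter peak numbered 16 in untreated JM1 (32.0%, all genes 26.5%) and 8 in 697 (16.0%, all genes 39.4%), those in both JM1 lists 16 (32.0%, all genes 26.0%) and those in all 5 lists 5 (10.0%, all genes 17.5%), and 16 untreated JM1 promoter peaks overlapped a treated one, of 17 left (94.1%, all promoter peaks 95.3%). Untreated JM1 thus lay above all genes at this score and near them with all peaks. A reciprocal overlap of 50% left 18 of the 35 shared JM1 peaks (all promoter peaks 36.1%). The genes in the untreated JM1 list alone went from 0 to 4 at equal list length (8.0%, all genes 5.83%) and to 2 with the peak centre in the window (4.0%, all genes 6.19%). The genes in all 5 lists went from 14 to 7 where the peak had to hold the canonical start (14.0%, all genes 22.7%) and to 26 without the 697 list (52.0%, all genes 55.4%), both added after the data had been seen. These settings keep fewer peaks, positions or lists by construction. The score cut of 20 also falls at unlike percentiles in the lists. The counts in treated JM1, REH and Nalm6 and in the treated JM1 list alone stayed within 1.5 times under the settings run, but the genes in the treated JM1 list alone went from 19, or 38.0% (all genes 23.0%) to 25 of the 50 genes (all genes 45.7%) at a score of 20 or more. No paired analysis was possible because each condition had 1 list and no test was made. With no depth known, an absent peak says only that none was listed.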
